A study of Mus musculus with 18 samples.

Results

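Prss28, Ces1a, Wfdc17, Anxa10 and Stat4 were followed across the pituitary, hypothalamus and thyroid of mice carrying a change in the thyroid hormone receptor THRB. These 5 genes, of the 24054 listed in the pituitary table, were chosen because their values were low in WT pituitaries and far higher in K146Q pituitaries, so the pituitary difference between genotypes is the choice itself and is given below as a description with no test. All 5 symbols were found once in the table of each tissue. K146Q replaces a lysine of THRB, a site where the small protein SUMO is attached, by glutamine in every receptor isoform. It is a knock-in carried by the whole body, and the K146Q mice were homozygous. The WT controls came from the same substrain, C57BL/Ntac. All animals were 3 months old, untreated and, per the study's methods, male. Each tissue had 3 WT libraries (mice 1, 2 and 43) and 3 K146Q libraries (mice 60, 62 and 83), 18 libraries in all, made from RNA of bulk tissue. For the pituitary, the study's methods name the pituitary and a figure legend the anterior pituitary. Values are read counts normalized to library size (CPM), and a library held between 14902330 and 21230050 reads, so that 3 reads were worth 0.133 to 0.190 CPM.

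The thyroid hormone axis is a feedback loop. Hypothalamic TRH drives the thyrotrophs of the anterior pituitary to release TSH, a dimer of the products of Tshb and Cga, and TSH drives the thyroid. Thyroid hormone, acting through THRB in the thyrotroph, holds Tshb down. The 5 genes have no textbook place in this loop. Prss28 encodes a tryptase-like secreted serine protease known from the implanting uterus. Ces1a belongs to the mouse carboxylesterases, which split ester bonds in lipids and drugs. Wfdc17 encodes a small secreted WAP-domain protein known from activated macrophages and microglia. Anxa10 belongs to the annexins, a family of mostly calcium-dependent phospholipid-binding proteins, and is best known from gastric epithelium. Stat4 is the transcription factor that carries interleukin-12 signals in T and natural killer cells.

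The genes lie apart in the genome. In the GRCm38 build Prss28 is at chr17:25308646-25311876 on the plus strand, Ces1a at chr8:93020214-93048192 on the minus strand, Wfdc17 at chr11:83703991-83706268 on the plus strand, Anxa10 at chr8:62057042-62123150 on the minus strand and Stat4 at chr1:51987148-52107189 on the plus strand. All are annotated as protein coding. The promoters of the 2 genes that held searched letters are shown with that of Ces1a, which held none. Each runs 5′ to 3′ from 250 bases before to 50 after the RefSeq start (GRCm38.p6), and capitals mark a searched motif on either strand.
Prss28 promoter, chr17:25308396-25308695, plus strand: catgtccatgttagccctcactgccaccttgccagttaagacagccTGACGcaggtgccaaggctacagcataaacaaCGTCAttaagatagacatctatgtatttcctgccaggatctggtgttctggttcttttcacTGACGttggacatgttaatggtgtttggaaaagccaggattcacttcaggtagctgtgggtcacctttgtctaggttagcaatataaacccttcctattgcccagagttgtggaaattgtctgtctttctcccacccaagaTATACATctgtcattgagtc
Stat4 promoter, chr1:51986898-51987197, plus strand: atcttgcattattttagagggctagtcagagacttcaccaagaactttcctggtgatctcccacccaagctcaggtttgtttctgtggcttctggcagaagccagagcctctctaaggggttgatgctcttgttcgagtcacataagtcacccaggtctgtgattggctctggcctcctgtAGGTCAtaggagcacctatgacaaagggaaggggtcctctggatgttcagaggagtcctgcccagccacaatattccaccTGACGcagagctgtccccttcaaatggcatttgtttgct
Ces1a promoter, chr8:93048143-93048442, minus strand: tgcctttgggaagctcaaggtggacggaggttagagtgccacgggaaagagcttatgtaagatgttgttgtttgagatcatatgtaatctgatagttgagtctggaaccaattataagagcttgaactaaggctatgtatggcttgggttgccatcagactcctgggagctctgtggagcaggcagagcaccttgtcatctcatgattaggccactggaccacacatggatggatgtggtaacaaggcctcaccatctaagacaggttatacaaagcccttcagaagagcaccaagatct
Counting the annotated start as base 0, the Prss28 window held TGACG, the short site of CREB factors, with first bases at -204, -172 and -111, the one at -172 on the opposite strand and written there as CGTCA. It also held TATACAT, a match to the POU1F1 letters TATNCAT, from 30 to 36. The Stat4 window held AGGTCA, the core letters bound by nuclear receptors, from -69 to -64 and TGACG from 11 to 15. No motif overlapped another. Over all 32851 RefSeq promoter windows of this length, TGACG was in 20.8%, AGGTCA in 16.3% and TATNCAT in 8.84%. The GATA-factor letters AGATAA and TGATAA (11.2% and 9.05% of all windows) and the STAT letters TTCNNNGAA (8.30%) were in none of the windows of the 5 genes, and neither Wfdc17, Anxa10 nor the second annotated start of Stat4 held any of the 6. These are matches of letters in one window and say nothing about binding.

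The pituitary contrast, which chose the genes, asks what the receptor change does where TSH is made. Prss28 read 15.8, 4.40 and 28.1 CPM in WT mice 1, 2 and 43, and 1774, 1735 and 1633 CPM in K146Q mice 60, 62 and 83. The WT libraries differed among themselves by several fold, the K146Q libraries hardly at all, and the lowest K146Q library stood 58.2 times above the highest WT library. By mean CPM Prss28 moved from rank 8951 in WT to rank 17 of 24054 listed genes in K146Q, among the most abundant transcripts of the gland. Its mean was 16.1 ± 11.8 CPM in WT and 1714 ± 72.6 in K146Q (SD, n = 3 each), a difference of 7.02 on the log2(CPM + 0.5) scale. Because these are values of bulk tissue, more cells of a type and more RNA per cell cannot be told apart.

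Ces1a rested on 6, 3 and 1 reads in the WT pituitaries, which is 0.267, 0.172 and 0.0570 CPM. In K146Q mice 60, 62 and 83 it reached 46.4, 20.3 and 16.9 CPM, on 900, 398 and 337 reads. The WT values are at the edge of what this depth can count, while mouse 60 stood well above the other K146Q mice. With 10 WT reads against 1635 K146Q reads, the ratio of summed and scaled reads was 160, with an exact 95% binomial interval of 86.6 to 334 that covers counting error only.

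Anxa10 gave the same picture at a lower level. It had 0.133, 0.0572 and 0.342 CPM in WT, again 10 reads in all, and 21.8, 14.8 and 13.8 CPM in K146Q. The ratio of reads was 96.3 (52.1 to 201). Wfdc17 had 0.534, 0.629 and 0.968 CPM in WT and 49.9, 28.1 and 23.1 CPM in K146Q, a ratio of 48.3 (35.3 to 67.8). Unlike Ces1a and Anxa10, Wfdc17 was above 0.5 CPM in every WT pituitary.

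Stat4 was the mildest of the 5 and was well counted in both genotypes. It read 1.65, 2.35 and 2.90 CPM in WT and 20.6, 17.4 and 17.2 CPM in K146Q. The ratio of reads was 8.19 (6.82 to 9.91), and each group was tight. For Prss28 the ratio of reads was 107 (99.9 to 114). These intervals pool the reads of the mice and cover counting error only. They leave out the spread between mice, which for Prss28 in WT ran from 4.40 to 28.1 CPM.

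No K146Q pituitary overlapped a WT pituitary for any of the 5 genes, which the choice fixes. All K146Q libraries lay above all WT libraries for 16.7% of the 15589 genes tested there. On the log2(CPM + 0.5) scale the differences were 5.29 for Ces1a, 4.76 for Wfdc17, 4.67 for Anxa10 and 2.77 for Stat4. On this scale Prss28, Ces1a, Wfdc17 and Anxa10 were ranks 1, 2, 3 and 4 of all tested genes, and Stat4 was rank 25. Of 7 genes with a difference of at least 4 and no overlap, 4 were these. Of 65 genes with at least 2, all 5 were among them. Leaving out each mouse in turn moved the Prss28 difference between 6.31, without WT mouse 2, and 7.58, without WT mouse 43. It moved that of Ces1a between 4.85 and 5.57, of Wfdc17 between 4.44 and 4.99, of Anxa10 between 4.47 and 4.83 and of Stat4 between 2.60 and 2.93. The ranks depended on the method. Ces1a stood above Prss28 in the count tests, at 7.28 against 6.74 with edgeR and 7.37 against 6.73 with DESeq2.

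**Figure D1:**
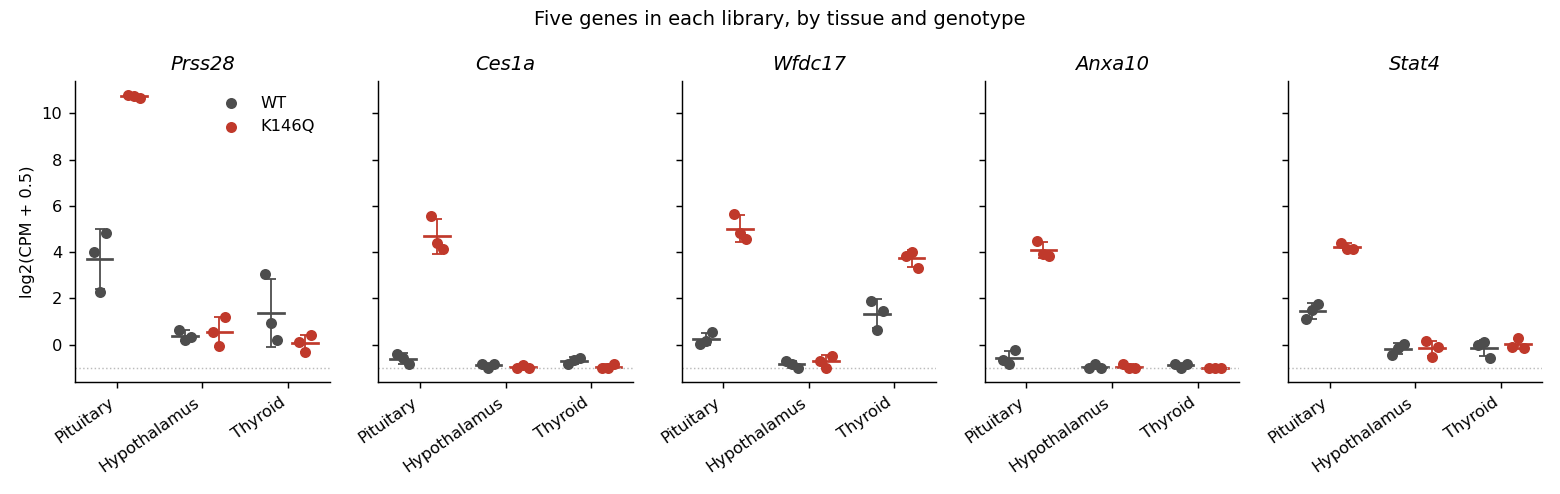
Each point is 1 library, on the log2(CPM + 0.5) scale, with 3 WT (grey) and 3 K146Q (red) mice per tissue. Bars are the group mean and SD, and the dotted line is 0 CPM. All 5 genes separate the genotypes in the pituitary, where Prss28 reaches 1633 to 1774 CPM in K146Q. Outside the pituitary the groups separate upwards for Wfdc17 in the thyroid, and the other genes stay near the dotted line or overlap. Ces1a in the thyroid is lower in K146Q on 0 to 3 reads a library, and the closest WT and K146Q libraries have 1 read each.

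Read against its name, the set was mixed. A stricter pattern was counted over the whole pituitary table, under 0.5 CPM in all 3 WT libraries, a mean of at least 1 CPM in K146Q and no overlap. It held for 36 genes, which is 0.15% of 24054, and for 2 of the 5, Ces1a and Anxa10. These were ranks 1 and 2 of the 36 by K146Q mean. Wfdc17 was over the limit in all 3 WT libraries, at 0.534 to 0.968 CPM, while Prss28 and Stat4 were plainly expressed in WT pituitaries. After Ces1a and Anxa10, the highest K146Q means were 11.8 CPM for Gm1987, 5.91 for Nkx6-2, 5.31 for Trpm5, 4.43 for Bpifa2, 4.27 for Olfr282, 4.15 for Wfdc18, 4.10 for Slc6a3 and 3.69 for Gm6537. Every one of these was below the lowest K146Q value of Anxa10, 13.8 CPM. Ccl21c, Gm21541, Gm10591 and Gm13304, also among the 36, had identical values in every library, and how reads were split among these near-identical genes is uncertain.

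The reverse pattern, near zero in K146Q and expressed in WT, held for 9 pituitary genes. In the hypothalamus the counts were 1 and 2 genes, and in the thyroid 108 and 96, and none of the 5 was among them in either tissue.

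**Figure D2:**
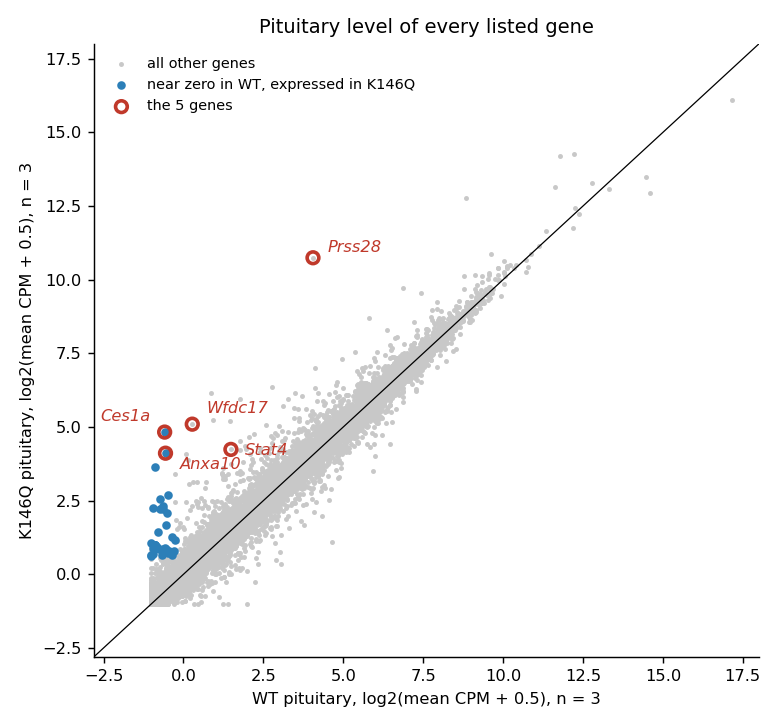
Each point is 1 of 24054 listed genes by its mean level in 3 WT (x) and 3 K146Q (y) pituitaries, both as log2(mean CPM + 0.5), with the line of equality. Blue points are the 36 genes near zero in WT and expressed in K146Q, and red rings the 5 genes. Ces1a and Anxa10 top the blue group, while Prss28 starts from 16.1 CPM and Stat4 from 2.30 CPM in WT.

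Per kilobase of exon the order of levels within the K146Q pituitary was Prss28 at 1407 ± 59.6 CPM per kb, Wfdc17 at 63.2 ± 26.7, Ces1a at 12.4 ± 7.19, Anxa10 at 7.32 ± 1.90 and Stat4 at 4.75 ± 0.505 (SD, n = 3). Neighbours in this order did not overlap, Wfdc17 in its lowest library having 43.3 CPM per kb against 20.7 in the highest Ces1a library, except Ces1a and Anxa10, whose libraries ran from 7.52 to 20.7 and from 6.02 to 9.50 CPM per kb. In the WT pituitary the order was Prss28 at 13.2 ± 9.72, Wfdc17 at 1.33 ± 0.428, Stat4 at 0.594 ± 0.163, Anxa10 at 0.0774 ± 0.0643 and Ces1a at 0.0735 ± 0.0468 CPM per kb. There Anxa10 and Ces1a did not differ beyond their spread.

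The K146Q mice kept the same order for all 5 genes, with mouse 60 highest, mouse 62 next and mouse 83 lowest. Relative to the mean of the 3 mice, mouse 60 was at 1.67 for Ces1a, 1.48 for Wfdc17, 1.30 for Anxa10, 1.12 for Stat4 and 1.03 for Prss28. So Ces1a and Wfdc17 varied most and Prss28 hardly varied. Tshb, the TSH beta chain, had the same order of mice, at 8183, 7166 and 5600 CPM, as did Cga at 20723, 19367 and 16205 CPM and Dio2, the deiodinase that activates thyroid hormone, at 944, 877 and 704 CPM. With 3 mice this is an ordering and not a tested relation. The order was not particular to thyrotroph genes, and its share over all genes was not counted. Summed corticotroph and melanotroph markers had it too, at 10994, 10533 and 6324 CPM. Summed somatotroph markers had the reverse order, at 62593, 74285 and 75482 CPM.

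**Figure D3:**
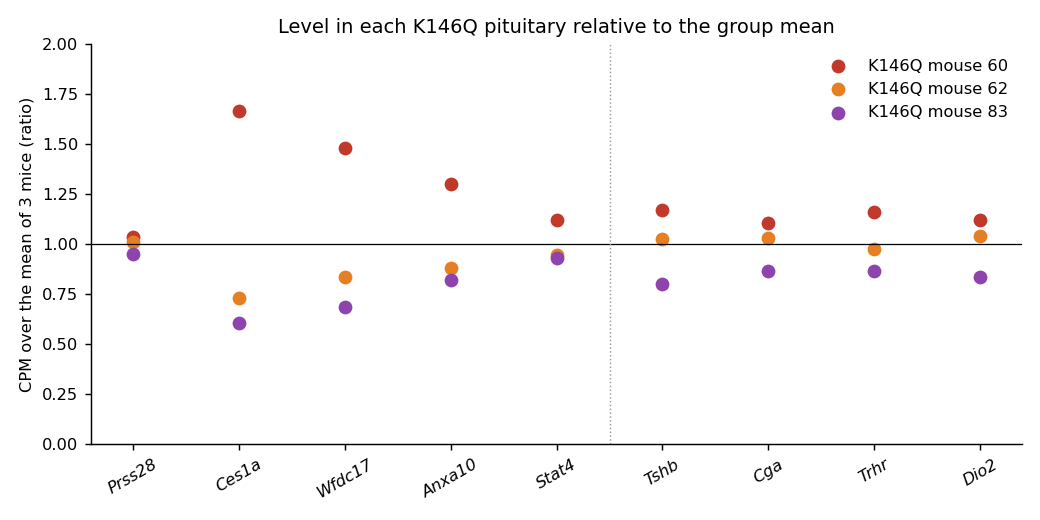
Each point is 1 K146Q pituitary, as its CPM divided by the mean of the 3 K146Q mice (linear ratio, 1 marks the mean). The 5 genes are left of the dotted line and 4 thyrotroph genes right of it. Mouse 60 is highest for all 9 genes, from 1.03 for Prss28 to 1.67 for Ces1a.

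The tissue was checked against markers of the cells it can hold. All 9 thyrotroph markers were detected, and 7 were higher in K146Q pituitaries (limma with Benjamini-Hochberg adjustment, median 0.92 on the log2 scale), beside 6.36% of all tested genes called higher. Among them Tshb was higher by 4.03 (log2, adjusted p = 9.24e-05), Dio2 by 2.90 (5.79e-05), Trhr, the TRH receptor, by 2.75 (2.28e-04) and Cga by 2.42 (3.65e-05). Their summed level ran from 3987 to 5161 CPM in WT and from 23110 to 30528 CPM in K146Q. Gh, the somatotroph hormone, read between 97779 and 213048 CPM in WT and between 62503 and 75385 in K146Q. With the pseudocount of 0.5 the differences of Prss28, Ces1a, Wfdc17 and Anxa10 were above that of Tshb, though that of Anxa10 was 3.90 with a pseudocount of 1, and that of Stat4 was close to those of Dio2 and Trhr. The part of the number of thyrotrophs in these values was not tested. With totals recomputed without the 10 most abundant genes the pituitary calls split into 837 higher and 879 lower, against 991 and 546 as deposited.

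The targeted gene, Thrb, carries a point mutation, so its mRNA level is no check of the genotype labels. It was 103 ± 4.35 CPM in WT and 162 ± 20.9 in K146Q pituitaries (log2 difference 0.65, limma adjusted p = 0.00285), a small difference beside those of the 5 genes. In the thyroid it was lower in K146Q, at 15.6 ± 0.679 CPM in WT and 5.94 ± 1.13 in K146Q (log2 difference -1.33, adjusted p = 6.21e-04), and in the hypothalamus it read 27.9 ± 0.914 and 27.6 ± 2.08 CPM (-0.020, 0.998).

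Macrophage markers moved in the same direction as Wfdc17. Of 10 markers 9 were higher in K146Q pituitaries (median 0.94, log2, beside -0.0088 over all genes tested), among them Csf1r, the receptor of the macrophage growth factor, by 0.97 (limma adjusted p = 0.00178) and C1qa, a complement chain, by 0.90 (0.00220). Their summed level was 135 to 162 CPM in WT and 227 to 349 CPM in K146Q. Wfdc17 read 3.94 to 5.98 CPM per 1000 CPM of macrophage markers in WT and 101 to 143 in K146Q, a ratio built on the values that chose the gene. Within the K146Q mice both were highest in mouse 60 and lowest in mouse 83. The part of macrophages in the Wfdc17 value was not tested, and this ratio does not measure it.

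**Figure D4:**
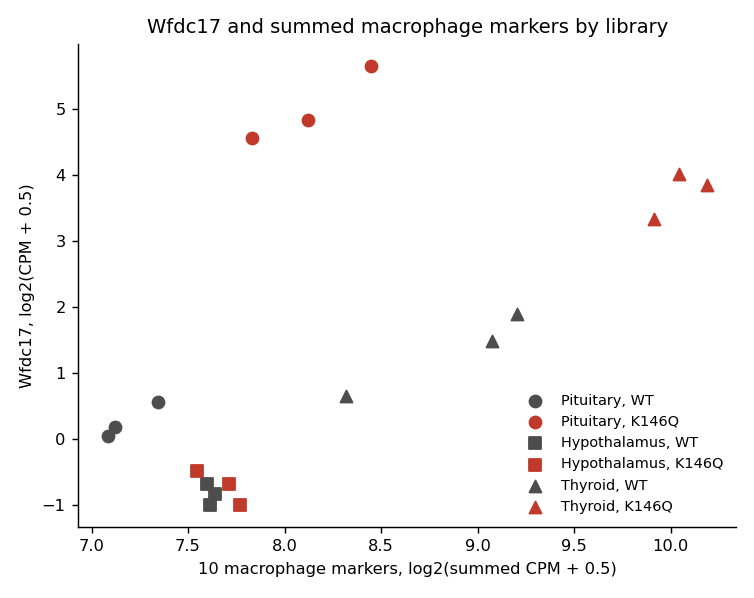
Each point is 1 library, with the summed level of 10 macrophage markers on x and Wfdc17 on y, both as log2(CPM + 0.5). Shape gives the tissue and colour the genotype (grey WT, red K146Q). K146Q pituitaries lie highest at 101 to 143 CPM of Wfdc17 per 1000 CPM of markers, and hypothalamus libraries lie lowest at marker sums of 186 to 217 CPM.

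Stat4 was set beside the T and natural killer cell markers. Of 12 markers 5 were expressed highly enough to test in the pituitary, and 0 were called by limma, edgeR or DESeq2, with 1 at an unadjusted p under 0.05. The highest, Lck, read 3.00 ± 0.295 CPM in WT and 3.51 ± 1.14 in K146Q (log2 difference 0.16, limma adjusted p = 0.684), and Cd4 read 1.63 ± 0.436 and 2.81 ± 0.823 (0.63, 0.120). Their summed level was 8.32 to 9.04 CPM in WT and 7.72 to 14.9 CPM in K146Q, overlapping. Stat4 read at most 2.90 CPM in WT and at least 17.2 CPM in K146Q, the values that chose it. The part of T and natural killer cells in the Stat4 value was not tested.

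Markers of liver and stomach, where Ces1a and Anxa10 have relatives or are better known, were low. Of 5 liver markers 2 were testable and Apoa2, an apolipoprotein, was higher, at 1.21 ± 0.188 CPM in WT and 4.21 ± 1.53 in K146Q (log2 difference 1.42, limma adjusted p = 0.00507). Of 5 gastric markers Gkn1, a secreted gastric protein, was listed at 0 in every WT pituitary and at 0.752 to 1.60 CPM in K146Q (limma adjusted p = 0.00353). Gkn1 passed the filter through the K146Q libraries alone, so being testable was tied to being higher. The summed gastric markers were at most 0.854 CPM in WT and 1.75 CPM in K146Q. Anxa10 read 13.8 CPM or more in K146Q, the values that chose it. The part of liver or gastric cells in the Ces1a and Anxa10 values was not tested.

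Outside the tryptase cluster, which had no testable relative, no tested relative in the pituitary reached the difference of the member of its family. The members were chosen for that pituitary difference, so the choice all but fixed this result. It is therefore no finding about the families. Of 12 other genes of the tryptase cluster none reached 0.5 CPM in 3 pituitary libraries, and their summed level was 0.534 to 2.16 CPM in WT and 0.671 to 1.23 CPM in K146Q. Prss29, the closest known partner of Prss28 in the uterus, was listed at 0 in WT and had at most 2 reads in a K146Q library. Of 18 other carboxylesterases, 17 were in the table and 3 were testable, with 0 called by limma, edgeR or DESeq2 and 1 at an unadjusted p under 0.05. Ces1d, at 117876 bases the nearest carboxylesterase to Ces1a that the pituitary expressed, read 27.4 ± 7.51 CPM in WT and 23.7 ± 0.782 in K146Q (log2 difference -0.17, adjusted p = 0.553).

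Among 18 other WAP-domain genes 3 were testable and 2 were higher. Wfdc18, the closest neighbour of Wfdc17 at a distance of 2747 bases, had 6 reads in all in WT and 3.06 to 5.52 CPM in K146Q, a log2 difference of 2.92 (limma adjusted p = 1.49e-04), and it was called in the 3 fits that left out a WT mouse. The filter was passed by Wfdc18 through the K146Q libraries alone, so being testable was tied to being higher. Wfdc2 went from 21.4 ± 4.71 to 37.4 ± 4.36 CPM (0.81, 0.0128), and its adjusted p was above the threshold without mouse 60. Of 11 other annexins 9 were testable. Anxa1, an annexin of inflammation, was higher by 0.70 (0.0226) and Anxa5 lower by 0.33 (0.0334), beside 3.5% of all tested genes called lower, and the first was called in 1 and the second in 2 of the 6 fits that left out a mouse. Of 27 other genes of the STAT family and interleukin-12 signalling 21 were testable. Ifnar2, a chain of the type I interferon receptor, was higher by 0.58 (0.00349) and Stat5a lower by 0.56 (0.0194), the latter in 2 of 6 such fits. The medians of the testable relatives were -0.17 for carboxylesterases, 0.81 for WAP-domain genes, 0.028 for annexins and -0.044 for the STAT list, beside -0.0088 over all genes tested.

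**Figure D5:**
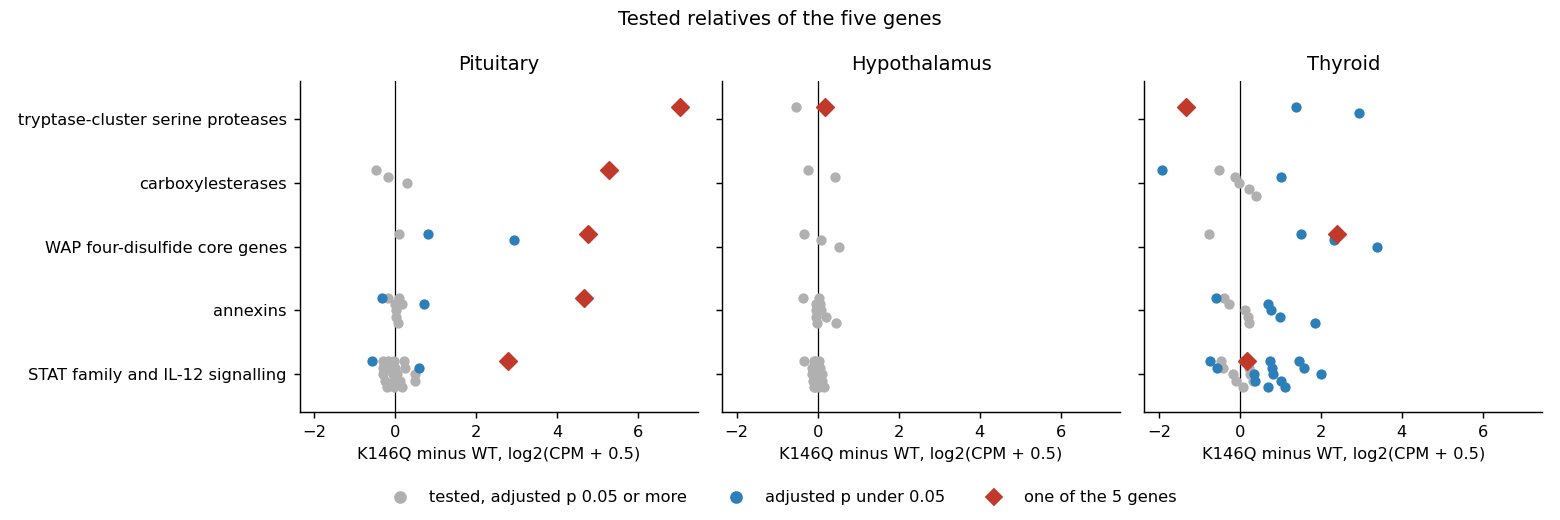
Each point is 1 tested gene, by its K146Q minus WT difference on the log2(CPM + 0.5) scale, grouped by family (rows) and tissue (panels). Blue marks an adjusted p under 0.05 (limma), grey one at or above it and red diamonds the 5 genes, which have no test in the pituitary. There the diamonds stand at 2.77 to 7.02, which reflects the choice of the genes, and the nearest relative is Wfdc18 at 2.92. In the hypothalamus no gene is called, and in the thyroid relatives are called in both directions.

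The genes next to the 5 were taken from the annotation as the nearest protein-coding gene on each side that the pituitary expressed. Cacna1h beside Prss28 gave a log2 difference of -0.11 (limma adjusted p = 0.456). Slc6a2 beside Ces1a and Ddx60 beside Anxa10 gave 0.091 (0.855) and -0.078 (0.816). On the other side Spock3, at 827859 bases from Anxa10, was higher by 0.94 (0.0255), in 3 of 6 fits that left out a mouse. Ccl3, at 54636 bases from Wfdc17, was higher by 0.94 (0.0390) on a K146Q mean of 0.937 CPM, and in none of 3 such fits. Like Wfdc18, Ccl3 passed the filter through the K146Q libraries alone, so being testable was tied to being higher. Of the neighbours named here, Wfdc18 alone had a difference above 1.

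Over all 18 libraries the patterns of Prss28, Ces1a, Anxa10 and Stat4 were alike, with Pearson correlations of log2(CPM + 0.5) between 0.929 and 0.992 for each pair. Wfdc17 correlated with them at 0.627 to 0.706. Libraries of a tissue and genotype move together, so these describe the grouping and carry no p, and the scaling between tissues enters them. The 18 libraries include the pituitaries whose difference between genotypes chose the genes. A high correlation between chosen genes was therefore largely fixed by the choice. Other genes much higher in K146Q pituitaries, such as Dio2 and Tshb, share that difference. Shared regulation was not tested. Among 17139 other genes, those most like Prss28 were Dio2 (0.973), Stat4 (0.970), Mmp20 (0.969), Chuk (0.960) and Tshb (0.956). For Stat4 they were Mmp20 (0.981), Creb3l1 (0.980), Prss28 (0.970), Tmem27 (0.968) and Dio2 (0.967). Ces1a was most like Anxa10 (0.992), Trpm5 (0.989), Gkn1 (0.983), Olfr282 (0.982) and Nmb (0.968). Anxa10 had Ces1a, Trpm5 (0.979), Gkn1 (0.977), Olfr282 (0.968) and Slc27a6 (0.961). Wfdc17 had a separate set of Txndc15 (0.976), Gc (0.960), Susd1 (0.934), Bmp15 (0.933) and Nckap1l (0.919), the last known from blood cells.

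Of 7 hypothalamic neuron genes all were testable in the hypothalamus and 4 in the pituitary. Pmch, a neuropeptide gene, had a mean of 228 CPM in WT hypothalamus and 0.393 in WT pituitary, while Pomc, which corticotrophs and melanotrophs also make, went the other way at 21.2 and 10085 CPM. Of 7 thyroid follicle genes all were testable in the thyroid, where they summed to 299623 to 361343 CPM in WT and 90316 to 137747 in K146Q. The hypothalamus and thyroid played no part in the choice, so the genotype effect on the 5 genes was tested there. In the hypothalamus 1 of the 5, Prss28, was expressed highly enough to test. It read 1.07, 0.636 and 0.754 CPM in WT and 0.966, 0.450 and 1.83 CPM in K146Q, fully overlapping. The log2 difference was 0.18 ± 0.31 (SE, 95% interval -0.50 to 0.86, limma adjusted p = 0.998, exact two-sided permutation p = 0.8), and it was -0.15 without mouse 83. With 3 mice against 3 the smallest permutation p is 0.1. Of all 15761 hypothalamic genes tested, 0 (0%) were called by limma, 645 had an unadjusted p under 0.05, edgeR called 0 and DESeq2 9.

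Ces1a and Anxa10 had 0 or 1 reads in each hypothalamus and Wfdc17 had 0 to 4, so that a difference was not detectable at this depth. Stat4 had 4 to 10 reads, a mean of 0.388 ± 0.142 CPM in WT and 0.411 ± 0.202 in K146Q. None of the steep pituitary values had a counterpart here. The macrophage markers in this tissue summed to 193 to 199 CPM in WT and 186 to 217 CPM in K146Q. The hypothalamic Prss28 of K146Q mice was 0.0631% of their pituitary level, beside 0.0768% for Tshb and 0.136% for Gh. In WT mice it was 5.10%, beside 0.735% for Tshb and 0.0604% for Gh. Any difference in scaling between the tables is common to the genes of a genotype in these percentages. The part of pituitary RNA in the hypothalamic reads was not tested.

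In the thyroid Wfdc17 was higher in K146Q, and it was the single gene of the 5 called there, where 37.8% of 15200 genes were called with 19.7% higher and 18.1% lower. It read 3.22, 1.08 and 2.29 CPM in WT and 13.9, 15.7 and 9.56 CPM in K146Q. The groups did not overlap, as was so for 26.6% of tested genes in this direction. The log2 difference was 2.39 ± 0.33 (SE, 95% interval 1.62 to 3.16, limma adjusted p = 0.00136, exact permutation p = 0.1), and it stayed between 2.05 and 2.67 and called in all 6 fits that left out a mouse. Given the share of thyroid genes called, a call is no rare event in this tissue. With totals recomputed without the 10 most abundant genes, the thyroid calls split into 2496 higher and 3613 lower, against 2992 and 2747 as deposited.

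Macrophage markers were higher there too, 8 of 10, and their sum went from 319 to 589 CPM in WT to 963 to 1164 CPM in K146Q. Wfdc17 had 3.37 to 5.47 CPM per 1000 CPM of markers in WT thyroids, about the range of WT pituitaries, and 9.92 to 14.9 in K146Q thyroids. In K146Q pituitaries the ratio was 101 to 143, at a marker sum of 227 to 349 CPM. The part of macrophages in the thyroid value was not tested.

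Prss28 had a lower mean in K146Q thyroids, without passing the test. WT mice 1, 2 and 43 had 7.70, 1.39 and 0.662 CPM and K146Q mice 0.595, 0.294 and 0.821 CPM. The high WT mean came from mouse 1, whose thyroid library also had the most Gh, 365 CPM against 72.1 to 125 in the others, and the most Tshb, 35.9 CPM against 1.88 to 5.69. The log2 difference was -1.32 ± 0.66 (SE, 95% interval -2.85 to 0.20, limma adjusted p = 0.150, exact permutation p = 0.2). It was -0.50 without mouse 1, and it passed the threshold at -1.91 without mouse 43 (adjusted p = 0.0444) and at -2.50 with DESeq2 (adjusted p = 0.00777). The pituitary library of WT mouse 1 had 15.8 CPM of Prss28, 97779 of Gh and 539 of Tshb. K146Q pituitaries had 1633 to 1774, 62503 to 75385 and 5600 to 8183 CPM of the same genes in that order. The part of pituitary RNA in the thyroid library of WT mouse 1 was not tested.

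The remaining genes were near or at the limit of counting in the thyroid. Ces1a had 1, 2 and 3 reads in WT and 0, 0 and 1 in K146Q, which did not overlap once scaled, though the closest pair had 1 read each, and this held for 25.7% of tested genes in this direction. Its log2 difference in the fit without a filter was -0.26 ± 0.11 (adjusted p = 0.112, exact permutation p = 0.1). Anxa10 was listed at 0 in all K146Q thyroids, which at 3 reads a library allows 0.149 to 0.176 CPM, and had 1, 0 and 1 reads in WT. Stat4 read 0.418 ± 0.209 CPM in WT and 0.521 ± 0.161 in K146Q (0.17 ± 0.26, interval -0.44 to 0.78, limma adjusted p = 0.647), and its sign turned, to -0.034, without mouse 43.

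More relatives passed the test in the thyroid than in the pituitary, as did more of all genes. Of 2 testable tryptase-cluster genes both were higher, Prss33 by 2.95 (log2, limma adjusted p = 1.54e-04) and Tpsb2, a mast cell tryptase, by 1.40 (0.00922), where Prss28 was not called. Of 7 carboxylesterases Ces1f was lower by 1.92 (0.00511) and Ces2c higher by 1.02 (0.0303, in 1 of the fits that left out a mouse). Prss33 (0 to 0.190 CPM in WT, 3.46 to 5.20 in K146Q) and Ces2c (0 to 0.443, 0.703 to 1.23) passed the filter through K146Q libraries alone. For these 2 genes being testable was tied to being higher. Of 4 WAP-domain genes 3 were higher, Wfdc3 by 3.40 (1.36e-04), Slpi by 2.31 (3.71e-04) and Wfdc2 by 1.51 (0.00154). Of 10 annexins 4 were higher, led by Anxa1 at 1.86 (7.95e-04), and Anxa11 was lower by 0.58. Of 22 genes of the STAT list 11 were higher, led by Socs3 at 2.01 (1.99e-04), a feedback inhibitor of cytokine signalling, and Stat5a and Stat5b were lower. In the hypothalamus 0 relatives of any family were called by limma, edgeR or DESeq2, and 2 annexins and 2 genes of the STAT list had an unadjusted p under 0.05.

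Whether the genotype effect differed between thyroid and hypothalamus was tested as a difference of differences within each table, in a fit over 12 libraries in which 30.4% of 16801 genes were called. Of the 5 genes Prss28 alone was testable in both tissues, and it gave -1.50 ± 0.81 (log2, SE, 95% interval -3.26 to 0.26, limma adjusted p = 0.185). Stat4, which reached 0.5 CPM in 2 hypothalamus libraries, gave 0.14 ± 0.32 (interval -0.56 to 0.85, 0.783). Wfdc17 reached 0.5 CPM in 0 hypothalamus libraries and entered this fit through the thyroid alone, so its value of 2.27 restates the thyroid difference and does not show that the effect differed between the tissues. The pituitary stayed out of this test because it chose the genes.

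The tables of the 3 tissues may have been scaled separately, so levels across them are given side by side with no test. In WT mice the pituitary held the highest mean of Prss28 and Stat4, at 16.1 and 2.30 CPM, and the thyroid that of Wfdc17, at 2.19 CPM beside 0.710 in the pituitary and 0.0590 in the hypothalamus. The libraries of these groups did not overlap for Wfdc17. Ces1a and Anxa10 were under 0.2 CPM on average in all 3 tissues of WT mice, and their orders there rest on single reads. In K146Q mice the pituitary held the highest mean of all 5, and its libraries did not overlap those of the other tissues for any of them.

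Parts of the counts carry limits of annotation. Stat4 is overlapped on its own strand by Gm28177, and 28.6% of its windows of 50 exon bases, 840 of 2933, also occur in that gene, which is not in the tables. For Ces1a 0.104% of windows were shared, with Gm45910, and for Prss28, Wfdc17 and Anxa10 none was. Antisense genes also overlap Ces1a and Stat4, and whether the counting used strand is not given in the sources used here.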

How the data were processed

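RNA of pituitary, hypothalamus and thyroid was sequenced on an Illumina HiSeq system. The submitters' processing notes name bcl2fastq 2.17, Bowtie2 2.1.0, RSEM 1.2.15 and mm10; the annotation and strand setting are not given in the sources used here. The deposited values are a normalized signal per gene in CPM, which the authors scaled per library. All 432972 values are whole multiples of the worth of 1 read (100% within 0.02 reads), so reads were recovered. The same tables hold the authors' own fold changes and p-values, which were not used.

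Values as log2(CPM + 0.5) were tested with limma 3.58.1 (R 4.3.3, mean-variance trend, Benjamini-Hochberg, threshold 0.05) over genes that reached 0.5 CPM in 3 or more libraries, within each tissue and over 12 libraries for the difference of the genotype effect between thyroid and hypothalamus. A planned test of WT thyroid against WT hypothalamus is not used, since the tables may have been scaled separately. Genes under the filter were read from the fit without it. In simulated reads with 200 genes changed by 2 (log2), 100% were recovered in the pituitary, over 15484 genes, and 96% for the difference between tissues, over 16690. Of the calls 4.76% and 5.88% were false. The changed genes were drawn from well-expressed genes alone, with a fixed spread that was not taken from these libraries. The simulation therefore does not give the power for genes near the floor or for the spread seen between these mice. Count tests (edgeR 4.0.16, DESeq2 1.42.0) on recovered reads, other pseudocounts, filters and scalings, and leaving out each mouse were alternatives. Permutations, which enumerate every arrangement, used scipy. Intervals on reads are exact binomial and cover counting error only. The smallest difference between replicate libraries was 5.87 times the sampling noise (chi-square per degree of freedom), so no library pair agreed within sampling noise.

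Genotypes share no mouse number, so no block applies within a tissue. The same numbers recur across tissues, taken as the same animals; deviations of same-numbered hypothalamus and thyroid libraries correlated at -0.0273 to 0.164 over 12140 genes, and the paired fit (replicate block) was an alternative. Exon lengths and neighbours came from GENCODE on GRCm38, promoters from RefSeq. List symbols missing from the tables were matched to an older symbol where one existed (Adgre1 as Emr1, Wfdc21 as 1100001G20Rik); Ces1h and Ly6g had none.

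The 5 genes and all lists were chosen with earlier results of these data known. Genes are named by list: those passing the test, otherwise the highest in the pituitary; the 5 most correlated with each of the 5; the nearest expressed neighbour on each side, of which some are not reported here; and the 10 highest of the near-zero pattern. The relatives Prss29 and Ces1d and the levels of Gh, Tshb and Cga per library were picked after values were seen.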

Additional observations from a re-analysis of the deposited data

Results flagged for a closer look

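For Wfdc17 the genotype effect in the thyroid minus that in the hypothalamus was 2.27 on the log2(CPM + 0.5) scale, past the threshold of the fit over both tissues. The hypothalamus libraries held 0 to 4 reads and 0 reached 0.5 CPM, so the effect there could not be measured and a difference between the tissues is not shown.

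Ces1a was higher in every K146Q pituitary and, once scaled, lower in every K146Q thyroid. The thyroid value was -0.26 on the same scale, on 6 WT and 1 K146Q reads, and the closest pair had 1 read each. The difference between the tissues was not tested, since the pituitary chose the gene.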

How the results depend on the processing

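Of 182 alternative values for the 5 genes, 164 kept their direction and their side of the threshold or stayed within the spread. Among the 164 are 23 values from the test of WT thyroid against WT hypothalamus, which is not used. The tissue difference of Wfdc17, which could not be measured, is also counted among the 182. In the pituitary 12 moved by more than the spread between replicates, all for Ces1a, Wfdc17 and Anxa10, whose WT values are near the pseudocount. For Ces1a the log2 difference was 6.66 with a pseudocount of 0.1, 4.50 with 1, 7.28 with edgeR and 7.37 with DESeq2, for Wfdc17 5.34, 4.27, 5.59 and 5.58, and for Anxa10 6.03, 3.90, 6.54 and 6.59. In the thyroid Prss28 passed the threshold with DESeq2 (-2.50, adjusted p = 0.00777, over a range of 0.00777 to 0.334) and without mouse 43 (-1.91). Signs turned for Prss28 in the hypothalamus without mouse 83 (-0.15, over a range to 0.50), for Stat4 in the thyroid without mouse 43 (-0.034, to 0.25 over the filtered fits that left out a mouse and 0.33 with DESeq2) and for the Stat4 difference between these tissues without mouse 43 (-0.17) and without mouse 62 (-0.16, over a range to 0.35).

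Leaving out each mouse gave 625 (without mouse 60) to 1345 called genes in the pituitary, with 752 without mouse 62, against 1537. It gave 0 to 6 in the hypothalamus (6 without mouse 83, 1 without mouse 43), where DESeq2 called 9, and 3602 (without mouse 62) to 5106 in the thyroid, against 5739. For the difference between these tissues it gave 3273 (without mouse 62) to 4609, against 5105. The near-zero pattern held for 16 genes with a WT limit of 0.2 CPM, for 12 with a K146Q mean of at least 2 CPM and for 24 (without mouse 60) to 53 without a mouse, against 36. With the mouse number as a replicate block, the adjusted p between tissues was 0.165 for Prss28 and 0.777 for Stat4, with 5362 genes called, so the block changed no call. Fits without a K146Q pituitary did not test Ces1a, Anxa10 or Wfdc18, since too few libraries then pass the filter. The cause of these shifts was not tested.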
